A study of Mus musculus with 16 samples.

Results

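The Toll-like receptor genes Tlr1 to Tlr9 and Myd88, which encodes their shared adaptor, were examined for open chromatin in mouse hematopoietic progenitors that differed in GATA2. These 10 genes, of 21755 protein-coding genes on chromosomes 1 to 19 and X, were listed by name, with earlier results of these data known. All regions with an ATAC-Seq peak within 100 kb of the 5′ end of a listed gene were taken, which gave 129 of the 90549 regions of the genome that held a peak in at least 1 of 16 libraries. Of these 129 regions, 49 lay closer to the 5′ end of a listed gene than to that of any other protein-coding gene, and 27 lay within 100 kb of 2 listed genes, since Tlr1 and Tlr6 are neighbors, as are Tlr7 and Tlr8.

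ATAC-Seq marks open chromatin by the sites at which a transposase inserts sequencing adapters. The cells were fetal liver progenitors immortalized with an estrogen-dependent HoxB8, infected with a retrovirus that carries GFP, and sorted for GFP+ 3 days later, with 50000 cells per library. The groups, of 4 libraries each, were wild-type progenitors with an empty vector (hi-77+/+ empty) and progenitors that lack the -77 enhancer of Gata2 with an empty vector (hi-77-/- empty), a GATA2 vector (hi-77-/- GATA2) or a vector for 9aa-Ins, a pathogenic human GATA2 variant in which 9 amino acids are inserted between the zinc fingers (hi-77-/- 9aa-Ins). All cells thus shared the HoxB8 immortalization, the β-estradiol in the medium and a GFP retrovirus, and only the hi-77-/- cells are labeled as lacking the enhancer. The labels name no separate lines within a genotype, so the deletion and the line cannot be told apart, and p-values measure the spread between these libraries only.

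Toll-like receptors recognize microbial molecules and signal from the cell surface or from endosomes. TLR1 and TLR6 each pair with TLR2 to recognize bacterial lipoproteins, TLR4 recognizes lipopolysaccharide and TLR5 recognizes flagellin, all at the surface. TLR3, TLR7, TLR8 and TLR9 recognize nucleic acids in endosomes. MYD88 carries the signal of all of them except TLR3 to NF-κB, and macrophages, dendritic cells and B cells are known for high expression of many of these receptors.

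The deposited peak lists hold no read counts, so each region was described by its rank. The 49000 most significant peaks of every library were ranked, and the rank percentile of a region ran from 100 for the most significant peak of that library to 0 where none of the 49000 overlapped it. A percentile of 0 does not mean closed chromatin, since the longer deposited lists, of 50195 to 112267 peaks, could still hold a weaker peak there. The weakest peak kept had a -log10 p of 5.35 to 7.43 in the GATA2 libraries and 8.75 to 11.7 in the 9aa-Ins libraries. In hi-77+/+ empty it was 8.34 to 9.70 and in hi-77-/- empty 7.38 to 8.13. The same list length thus reached deeper into the weak peaks of some groups than of others. The deposited lists held 92152 ± 17491 peaks with 9aa-Ins and 63873 ± 13802 with GATA2. In hi-77+/+ empty they held 90108 ± 15551 and in hi-77-/- empty 69150 ± 4346 (SD, n = 4 each). The ranked peaks covered 45476 to 47670 regions in the 9aa-Ins libraries and 40977 to 43982 in the GATA2 libraries. The labels were checked at the -77 site, in a window 76 to 78 kb upstream of Gata2. There the bases under peaks numbered 1296.5 ± 92.2 in hi-77+/+ empty and 152.25 ± 304 in hi-77-/- empty (SD, n = 4 each). That difference had an exact two-sided permutation p of 0.0286, the smallest that 4 against 4 libraries can give, although 4 of the 12 hi-77-/- libraries held a peak in the window that covered 246 to 609 bp, against 1196 to 1414 bp in the hi-77+/+ empty libraries. These were hi-77-/- empty replicate 4, GATA2 replicate 4 and 9aa-Ins replicates 3 and 4. Progenitor identity was visible at the promoters, with a peak at 7 of 8 progenitor marker genes in all 16 libraries (Kit, Cd34, Ptprc, Myb, Spi1, Runx1 and Lyl1). No hepatocyte or T cell marker of 4 each had a promoter peak in any library, and of 6 macrophage markers only Adgre1 had one. Markers of other lineages did have promoter peaks, with Ebf1 of 6 B cell markers and Epor and Klf1 of 4 erythroid markers in all 16 libraries. Cd79a, which encodes a chain of the B cell receptor, had a promoter peak in 4 of 4 libraries of hi-77-/- empty and of 9aa-Ins, whereas no GATA2 library had one. The B cell markers with a peak thus numbered 1 to 3 per library in hi-77+/+ empty, 2 in hi-77-/- empty, 1 with GATA2 and 2 with 9aa-Ins, and Ms4a1, Pax5 and Vpreb3 had none in any library. Of 4 mast cell and basophil markers, 1 had a peak in every hi-77+/+ empty library, 1 to 2 in hi-77-/- empty, 2 to 3 with GATA2 and 1 to 2 with 9aa-Ins, and Pecam1, of 3 endothelial markers, had one in every hi-77-/- library. The part of such markers in the changes near the Toll-like receptor genes was not tested.

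The regions that the results turn on are shown here as the 200 bp centered on the median peak summit, read from the RefSeq copy of GRCm38, the build of the peak lists. Capitals mark the GATA hexamers (AGATAA or AGATAG as well as TGATAA or TGATAG) on either strand. They also mark the octamer of PU.1 and other ETS factors, GAGGAAGT, on either strand, whereas E-boxes (CANNTG) were counted but not capitalized. Names give the distance of the summit from the 5′ end of the gene, positive in the direction of transcription. The following 5 regions were lower with GATA2 than in hi-77-/- empty.
Tlr1 +49.09 kb (chr5:64884372-64884571, plus strand): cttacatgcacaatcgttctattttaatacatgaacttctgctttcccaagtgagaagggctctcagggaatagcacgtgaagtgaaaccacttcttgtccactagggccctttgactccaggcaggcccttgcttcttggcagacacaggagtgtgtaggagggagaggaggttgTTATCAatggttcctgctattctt
Tlr1 +46.35 kb (chr5:64887113-64887312, plus strand): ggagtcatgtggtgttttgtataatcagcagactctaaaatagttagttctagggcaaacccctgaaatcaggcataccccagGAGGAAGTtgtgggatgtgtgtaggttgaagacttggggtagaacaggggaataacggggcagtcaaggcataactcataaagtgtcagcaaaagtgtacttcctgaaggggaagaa
Tlr2 -25.45 kb (chr3:83867121-83867320, plus strand): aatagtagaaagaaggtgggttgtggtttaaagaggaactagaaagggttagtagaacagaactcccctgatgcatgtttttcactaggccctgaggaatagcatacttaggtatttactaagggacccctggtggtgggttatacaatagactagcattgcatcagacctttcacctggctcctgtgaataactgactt
Tlr6 -0.91 kb (chr5:64960907-64961106, plus strand): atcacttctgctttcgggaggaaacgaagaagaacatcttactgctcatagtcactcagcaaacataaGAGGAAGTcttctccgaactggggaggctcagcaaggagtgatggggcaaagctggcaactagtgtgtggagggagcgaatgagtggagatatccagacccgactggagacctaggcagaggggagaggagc
Tlr7 +14.54 kb (chrX:167315916-167316115, plus strand): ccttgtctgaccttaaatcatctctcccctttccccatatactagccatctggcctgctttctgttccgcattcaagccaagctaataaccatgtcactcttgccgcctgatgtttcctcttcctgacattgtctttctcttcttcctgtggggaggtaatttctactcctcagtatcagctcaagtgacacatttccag
The next 2 regions, in introns of Tlr4, had a peak in 4 of 4 libraries with 9aa-Ins and in 0 of 4 of hi-77-/- empty.
Tlr4 +24.64 kb (chr4:66852125-66852324, plus strand): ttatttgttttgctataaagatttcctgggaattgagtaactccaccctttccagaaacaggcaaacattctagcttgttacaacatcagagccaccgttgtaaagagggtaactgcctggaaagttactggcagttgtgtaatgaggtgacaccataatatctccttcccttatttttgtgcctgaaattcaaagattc
Tlr4 +29.61 kb (chr4:66857090-66857289, plus strand): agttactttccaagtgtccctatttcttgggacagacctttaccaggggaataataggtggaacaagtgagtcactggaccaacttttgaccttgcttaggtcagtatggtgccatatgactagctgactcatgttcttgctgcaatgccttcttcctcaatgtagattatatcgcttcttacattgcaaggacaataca

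The Tlr1 region at +49.09 kb held a GATA hexamer, and the Tlr1 +46.35 kb and Tlr6 -0.91 kb regions each held the PU.1 octamer. Over all 129 regions near the listed genes, 24 windows of 200 bp held a GATA hexamer (18.6%), against 26.3% of all 90549 regions. Of the 17 regions that were lower with GATA2, 1 held a GATA hexamer (5.88%), and of the 9 that were higher with 9aa-Ins none did. The PU.1 octamer was in 10 of the 129 windows (7.75%) and in 7.63% of all regions, and an E-box was in 88 (68.2%) and 66.7%. The GC content was alike, with medians of 51.5% and 51.0%. These are matches of letters within 200 bp and say nothing of binding.

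Considered together, the regions near the Toll-like receptor genes were more often lower than higher after GATA2 was returned, whereas the balance after loss of the -77 enhancer depended on which peaks were used. In the comparison of hi-77-/- empty with hi-77+/+ empty, 23 of 129 regions were higher (17.8%), against 12.0% of all regions, and 7 were lower (5.43%), against 11.1%, by limma on the percentiles with p-values adjusted over all regions. With all deposited peaks, the deletion raised 10 and lowered 11 of 227 regions (all regions 3.28% and 7.89%), and where a peak had to cover 50% of the region it raised 9 and lowered 7 of 129 (all regions 6.14% and 7.58%), so that higher and lower regions were then close in number. With GATA2 against hi-77-/- empty, 4 were higher (3.10%, all regions 4.98%) and 17 were lower (13.2%, all regions 6.85%). With 9aa-Ins against hi-77-/- empty, 9 were higher (6.98%, all regions 3.01%) and 1 was lower (0.775%, all regions 0.949%). Between the vectors, 27 were higher with 9aa-Ins than with GATA2 (20.9%, all regions 9.14%) and 2 were lower (1.55%, all regions 4.87%). Without the 4 hi-77-/- libraries that held a peak at the -77 site, a setting added after the data were seen, 121 regions remained. Of these, the deletion raised 17 and lowered 4 (all regions 9.63% and 8.10%), and GATA2 raised 2 and lowered 12 (all regions 3.50% and 5.03%). The 9aa-Ins vector raised 4 and lowered 0 (all regions 2.13% and 0.560%). Between the vectors, 11 were higher and 1 was lower with 9aa-Ins (all regions 5.87% and 2.85%). These comparisons share libraries, since hi-77-/- empty enters the deletion, GATA2 and 9aa-Ins comparisons, so their directions are not independent of each other. The median difference over the 129 regions was 0 after the deletion and with GATA2, rose to 0.54 with 9aa-Ins and was 1.05 between the vectors, beside a median of 0 over all regions in each. The groups also differed in the length of the deposited lists and in the weakest peak kept, in which GATA2 and 9aa-Ins libraries did not overlap. The part of this in the counts and medians was not tested.

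**Figure D1:**
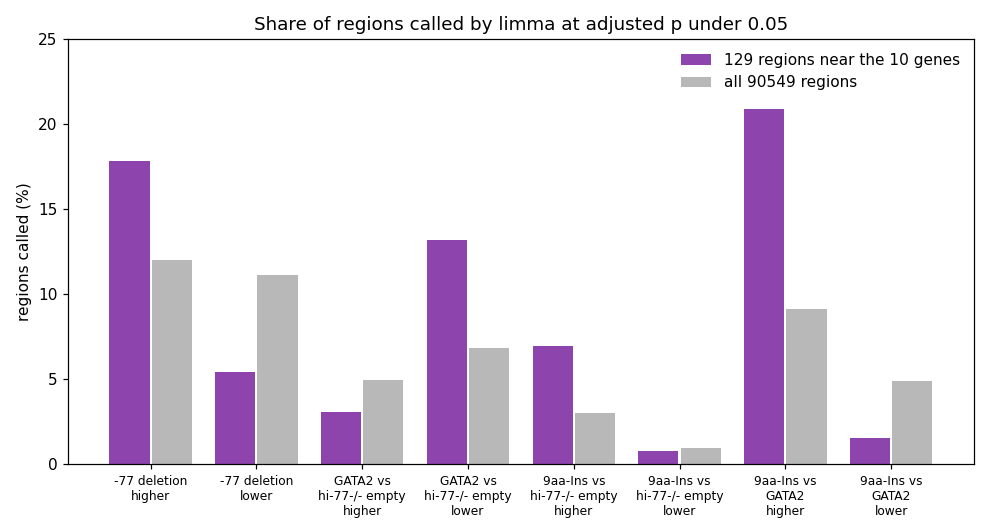
Share of regions, in percent, called higher or lower by limma in each of 4 comparisons, for the 129 regions near the 10 genes (purple) and for all 90549 regions (grey). The purple bar is above the grey one for the deletion higher (17.8% and 12.0%), GATA2 lower (13.2% and 6.85%), 9aa-Ins higher (6.98% and 3.01%) and 9aa-Ins against GATA2 higher (20.9% and 9.14%).

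Presence leaves aside the order of the peaks within the 49000, although it depends on that limit. A region was called opened where a peak among the 49000 was found in all 4 libraries of a group and in 0 of 4 of its reference group, and closed where the opposite held. After the deletion, 10 of the 129 regions opened (all regions 3.59%) and 2 closed (all regions 2.11%). GATA2 opened 0 (all regions 1.73%) and closed 5 (all regions 2.23%). With 9aa-Ins, 4 opened (all regions 1.35%) and 0 closed (all regions 0.171%). Relative to GATA2, 9aa-Ins had 5 opened (all regions 2.97%) and 0 closed (all regions 1.47%).

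The number of peaks within 100 kb of each gene gave 1 value per gene and library. It was called in 6 of the 10 genes for the deletion (26.1% of 20142 genes, in either direction), with 5 higher (Tlr1, Tlr6, Tlr7, Tlr8 and Tlr9) and Tlr3 lower. GATA2 changed 3 (9.57% of genes), Tlr1 and Tlr6 lower and Tlr4 higher. With 9aa-Ins, only Tlr4 was called (0.700% of genes), and it was higher. Between 9aa-Ins and GATA2, Tlr1, Tlr6 and Tlr2 were called (11.8% of genes), all with more peaks under 9aa-Ins. Over all genes, 9.47% of windows were higher and 16.7% lower after the deletion. These numbers depended on how many peaks were kept. When all deposited peaks were counted, 2 of the 10 genes were called for the deletion, 0 for GATA2 by limma (3 at an unadjusted p under 0.05), 2 for 9aa-Ins and 5 between the vectors, and the Tlr9 difference turned to -1.5 peaks. With the 24000 most significant peaks, the deletion differences of Tlr1, Tlr6 and Tlr7 turned to -0.25 peaks each and the GATA2 difference of Tlr4 to -0.75 (adjusted p = 0.0140). Values at single regions are therefore given below for each gene.

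**Figure D2:**
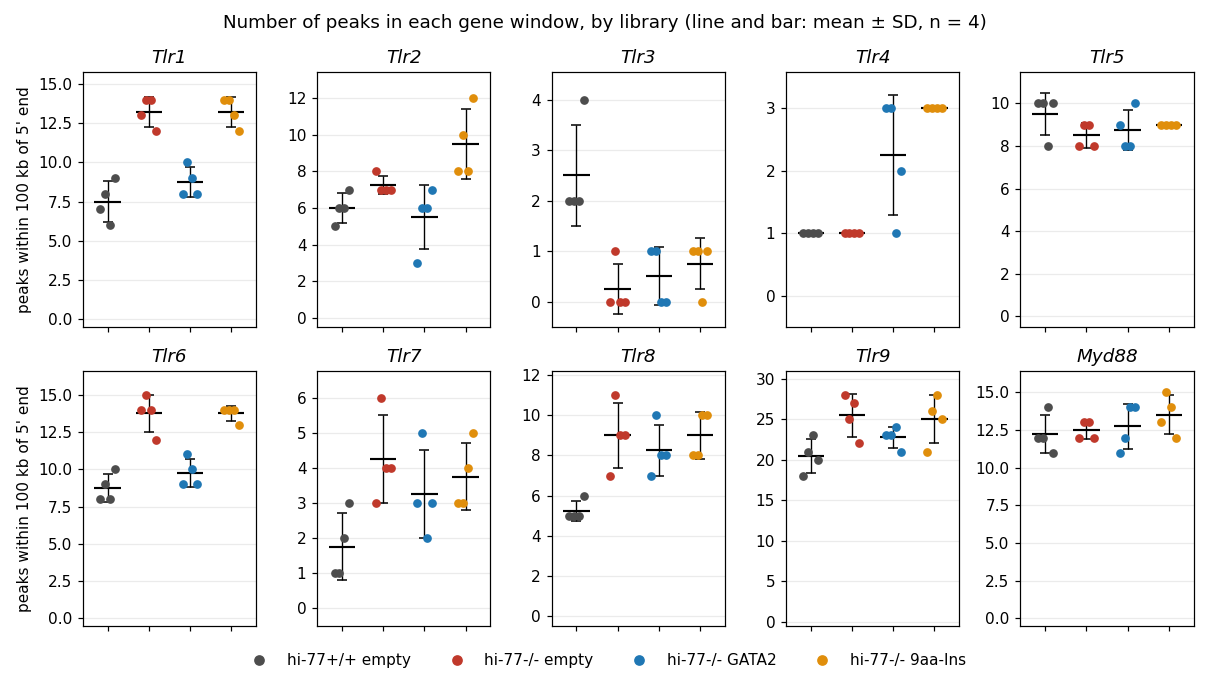
Number of peaks within 100 kb of the 5′ end of each of the 10 genes (y axis) in every library, by group (colors), with the mean and SD of 4 libraries. Tlr1 and Tlr6 have 12 to 15 peaks in hi-77-/- empty and in 9aa-Ins libraries and 6 to 11 in the others, while Tlr5 and Myd88 show no called difference.

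Tlr1 and Tlr6, whose products pair with TLR2, lie side by side on chromosome 5 (chr5:64924679-64933563 and chr5:64952031-64960097, both on the minus strand), and 22 regions were found near Tlr1 and 23 near Tlr6, of which 21 were shared. The window of Tlr1 held 7, 8, 6 and 9 peaks in hi-77+/+ empty replicates 1 to 4 and 13, 14, 14 and 12 in hi-77-/- empty. With GATA2 it held 8, 10, 9 and 8 peaks, and with 9aa-Ins 14, 14, 13 and 12. The hi-77-/- empty and 9aa-Ins libraries were all above the hi-77+/+ empty and GATA2 libraries. The deletion difference was 5.75 ± 0.77 peaks (SE, adjusted p = 1.08e-04), GATA2 lowered the number by 4.5 ± 0.77 (adjusted p = 0.00285), and the difference with 9aa-Ins was 0 ± 0.77 (adjusted p = 1.0). The deletion call was lost with all deposited peaks and with lists of 24000. The GATA2 call was lost with all deposited peaks and with windows of 50 kb.

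The region 49.09 kb downstream of the Tlr1 5′ end (chr5:64884034-64884631, intergenic, nearest gene Tlr1) separated GATA2 from every other group. Its percentile was 62.0, 64.9, 55.65 and 66.9 in hi-77+/+ empty and 73.3, 75.2, 68.6 and 67.4 in hi-77-/- empty. With GATA2 it was 30.2, 0.57, 0 and 1.4, and with 9aa-Ins 66.0, 49.3, 71.4 and 61.1. No GATA2 library reached the lowest value of any other group. GATA2 lay 63.1 ± 6.44 below hi-77-/- empty (adjusted p = 1.06e-05) and 53.9 ± 6.44 below 9aa-Ins (adjusted p = 4.62e-05), whereas the deletion difference of 8.77 did not pass the test (adjusted p = 0.357). The GATA2 call held in all 25 alternative settings. The call between the vectors was lost in 1, with lists of 24000 peaks (adjusted p = 0.0604).

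A second region, 46.35 kb downstream of Tlr1 (chr5:64887098-64887501, intergenic), had a peak in hi-77-/- empty and, more weakly, with 9aa-Ins. In hi-77-/- empty its percentile was 54.1, 43.2, 30.1 and 42.8, and with 9aa-Ins 22.1, 0, 12.4 and 8.9. All 4 hi-77+/+ empty and all 4 GATA2 libraries were at 0, and their full deposited lists also held no peak there. The region thus opened after the deletion (difference 42.6 ± 5.43, adjusted p = 5.10e-05) and closed with GATA2 (adjusted p = 7.99e-05). It was the only region of the 129 that was lower with 9aa-Ins, by 31.7 ± 5.43 (adjusted p = 0.00300), a call that was lost with all deposited peaks and with lists of 24000. The deletion and GATA2 calls were lost with lists of 24000 alone (adjusted p = 0.333 and 0.472).

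Farther from Tlr1, at 71.52 kb and 68.78 kb downstream, a pair of intergenic regions nearer to Klf3 were covered by a peak in every hi-77-/- empty library and in no hi-77+/+ empty library, although 3 and 2 of the full hi-77+/+ empty lists held a weaker peak. At 71.52 kb the percentiles were 4.34, 31.6, 47.4 and 19.2 in hi-77-/- empty, 27.3, 40.6, 47.0 and 23.3 with 9aa-Ins, and 0 in all GATA2 libraries. That region was higher with 9aa-Ins than with GATA2 by 34.6 ± 7.81 (adjusted p = 0.00728), in all 24 alternatives. Its GATA2 call against hi-77-/- empty (adjusted p = 0.0467) was lost in 16 of 24, among them leaving out any hi-77+/+ empty or GATA2 library, hi-77-/- empty replicate 2, 3 or 4, or 9aa-Ins replicate 1 or 2 (adjusted p up to 0.113). Its deletion call (adjusted p = 0.0274) was lost in 8, among them without any 1 hi-77+/+ empty library or hi-77-/- empty replicate 2 or 3 (adjusted p up to 0.0692). At 68.78 kb the deletion difference was 30.3 ± 6.91 (adjusted p = 0.00512), and the GATA2 call (adjusted p = 0.0494) was lost in 20 of 24, among them without any 1 hi-77+/+ empty or 9aa-Ins library, hi-77-/- empty replicate 1, 2 or 3, or GATA2 replicate 1, 2 or 4 (adjusted p up to 0.131).

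The Tlr6 promoter region (chr5:64960728-64961506, summit 0.91 kb upstream) had a peak in all 16 libraries and was also the highest ranked region of the Tlr1 window. Percentiles ran from 61.1 to 69.8 in hi-77+/+ empty, 62.9 to 81.2 in hi-77-/- empty, 40.2 to 62.1 with GATA2 and 68.5 to 81.4 with 9aa-Ins. The GATA2 libraries were all below the others except that their highest was above the lowest of hi-77+/+ empty. GATA2 was below 9aa-Ins by 19.98 ± 4.81 (adjusted p = 0.0109) and below hi-77-/- empty by 16.4 ± 4.81 (adjusted p = 0.0389). The latter call was lost in 10 of 25 alternatives, among them leaving out hi-77-/- empty replicate 1, 3 or 4, GATA2 replicate 2 or 4, or 9aa-Ins replicate 3 or 4 (adjusted p up to 0.121). A second region near the Tlr6 5′ end, 0.01 kb upstream (chr5:64959995-64960238), also had a peak in all 16 libraries. Its percentile was 71.5 ± 7.58 in hi-77+/+ empty, 57.9 ± 13.8 in hi-77-/- empty, 41.1 ± 23.6 with GATA2 and 40.5 ± 14.9 with 9aa-Ins (SD, n = 4 each). It was not called between the vectors (difference -0.598 ± 10.6) or for GATA2 against hi-77-/- empty (adjusted p = 0.443). Tlr1 itself had no region within 1 kb of its 5′ end in any library. The highest ranked region of the Tlr6 window, 78.41 kb upstream in an intron of Fam114a1, was at 83.9, 84.5, 88.9 and 86.3 with 9aa-Ins and at 65.5, 72.3, 66.5 and 67.4 in hi-77-/- empty, a rise of 17.98 ± 3.6 (adjusted p = 0.00930) that was lost with all deposited peaks and where a peak had to cover 50% of the region.

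Upstream of Tlr6, within introns of Fam114a1, neighboring regions moved in opposite directions. The region at 66.02 kb upstream was at 0 in all hi-77+/+ empty libraries and at 40.3, 23.8, 55.4 and 38.4 in hi-77-/- empty (difference 39.5 ± 9.29, adjusted p = 0.00628). That call was lost with lists of 24000 peaks alone (adjusted p = 0.306). The region at 63.07 kb upstream likewise opened after the deletion and closed with GATA2 (25.9 ± 6.62 in each direction, adjusted p = 0.0103 and 0.0176), the latter call lost without hi-77-/- empty replicate 4 (adjusted p = 0.0501) and both lost where a peak had to cover 50% of the region. In contrast, the region at 60.01 kb upstream was at 34.3, 30.0, 17.8 and 30.2 in hi-77+/+ empty and at 0 in all 4 hi-77-/- empty libraries, a fall of 28.1 ± 3.99 (adjusted p = 1.30e-04) that held in all 24 alternatives. With GATA2 a peak was there in 1 of 4 libraries and with 9aa-Ins in 2 of 4.

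Tlr2 (chr3:83836272-83841767, minus strand), the common partner of TLR1 and TLR6, had 15 regions in its window, and 11 had Tlr2 as the nearest gene. Its window held 5 to 7 peaks in hi-77+/+ empty, 7 or 8 in hi-77-/- empty, 3 to 7 with GATA2 and 8 to 12 with 9aa-Ins. The 9aa-Ins libraries were all above the GATA2 libraries, and the means of 9.5 and 5.5 differed by 4 ± 0.934 (adjusted p = 0.0145). No other comparison of the Tlr2 window passed the test.

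The region 25.45 kb upstream of Tlr2 (chr3:83867025-83867424, intergenic) was at 0 in all 4 hi-77+/+ empty libraries. It rose to 50.7, 38.5, 52.0 and 27.6 in hi-77-/- empty, a difference of 42.2 ± 7.80 (adjusted p = 0.00113). With GATA2 the percentiles were 0, 36.1, 21.6 and 0, and with 9aa-Ins 58.1, 61.5, 57.4 and 59.5, so that every 9aa-Ins library was above every other library. The full deposited lists held a weaker peak in 4 of 4 hi-77+/+ empty libraries, and the deletion call was lost in 3 of 25 alternatives, with all deposited peaks, with lists of 24000 and where a peak had to cover 50% of the region. The difference of 44.7 ± 7.80 between 9aa-Ins and GATA2 (adjusted p = 0.00106) held in all 25 alternatives, whereas GATA2 against hi-77-/- empty (27.8 lower, adjusted p = 0.0303) was lost in 8, among them leaving out hi-77-/- empty replicate 1, 2 or 3 or GATA2 replicate 1 or 4 (adjusted p up to 0.0905).

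Closer to the gene, the region 3.58 kb upstream of Tlr2 (chr3:83844884-83845713) was at 41.5, 0, 0 and 0 in hi-77+/+ empty and at 34.8, 48.4, 55.8 and 33.7 in hi-77-/- empty. GATA2 libraries were at 0, 16.8, 21.6 and 50.5, and 9aa-Ins libraries at 73.5, 72.3, 79.1 and 71.3. The 9aa-Ins libraries ranked it above all 12 others. It was higher with 9aa-Ins than with GATA2 by 51.8 ± 10.8 (adjusted p = 0.00400), and the 9aa-Ins value was not called against hi-77-/- empty (30.9 ± 10.8, adjusted p = 0.170). The deletion difference of 32.8 (adjusted p = 0.0395) was lost in 15 of 25 alternatives, among them leaving out hi-77+/+ empty replicate 2, 3 or 4, hi-77-/- empty replicate 2 or 3, or any 9aa-Ins library (adjusted p up to 0.107).

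The region over the Tlr2 5′ end, whose summit lay 0.15 kb downstream in an untranslated exon part, had a peak in 4 of 4 libraries of every group except GATA2, where it was at 0 in all 4 and 2 of 4 full lists held a weaker peak. Percentiles elsewhere were low and spread, at 46.8, 6.61, 7.4 and 8.98 in hi-77+/+ empty, 6.06, 38.5, 22.9 and 47.1 in hi-77-/- empty and 32.3, 24.4, 40.9 and 42.1 with 9aa-Ins. The closing by GATA2 was a presence call without a limma call (28.6 ± 9.92, adjusted p = 0.0856). The difference between the vectors was 34.9 ± 9.92 (adjusted p = 0.0283) and was lost in 8 of 24 alternatives, among them leaving out any GATA2 library or 9aa-Ins replicate 3 or 4 (adjusted p up to 0.0762). The highest ranked region of the window, 21.39 kb upstream, had a peak in all 16 libraries and was lower with GATA2 (65.6 ± 10.5) than in hi-77-/- empty (85.7 ± 2.52, adjusted p = 0.00822) or with 9aa-Ins (86.7 ± 3.44, adjusted p = 0.00523; SD, n = 4 each). In an intron of Tlr2, the region 2.1 kb downstream had a peak in 4 of 4 libraries with 9aa-Ins and 0 of 4 with GATA2, without a limma call (adjusted p = 0.0739).

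Also upstream of Tlr2, the region at 43.56 kb had a peak in every library, at 75.5 ± 3.28 with 9aa-Ins, 39.3 ± 16.1 with GATA2, 46.2 ± 9.02 in hi-77-/- empty and 25.4 ± 15.9 in hi-77+/+ empty (SD, n = 4 each). It was called between 9aa-Ins and GATA2 (adjusted p = 0.00843) but not between 9aa-Ins and hi-77-/- empty (adjusted p = 0.0724). The region at 17.5 kb upstream (chr3:83859081-83859390), singled out after its values were seen, was at 27.8, 5.07, 27.0 and 34.4 with 9aa-Ins and at 0 in all 12 other libraries (adjusted p = 0.00593 against hi-77-/- empty), a call that held in all 24 alternatives.

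**Figure D3:**
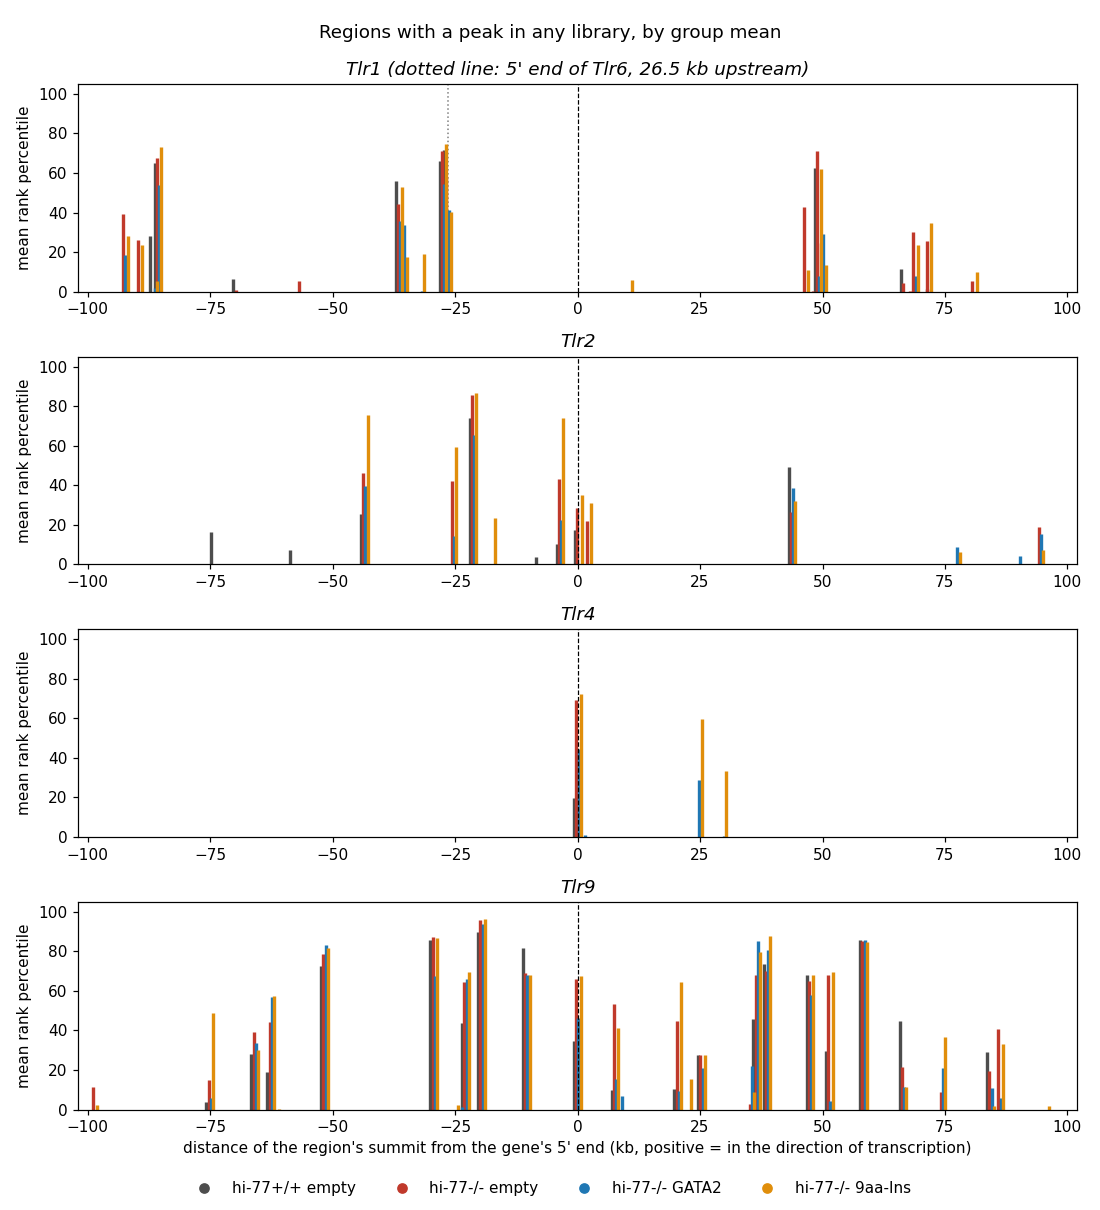
Mean rank percentile of each group (y axis, colored lines) at every region within 100 kb of the 5′ end of Tlr1, Tlr2, Tlr4 and Tlr9 (x axis, kb from the 5′ end at the dashed line, positive in the direction of transcription). Near Tlr2 the 9aa-Ins mean is the highest at 3.58, 25.45 and 43.56 kb upstream, and near Tlr4 the regions at 24.64 and 29.61 kb have means of 59.4 and 33.1 with 9aa-Ins and 0 in both empty vector groups.

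Tlr4 (chr4:66827584-66930284, plus strand), the lipopolysaccharide receptor, had 4 regions in its window, all nearest to Tlr4. Its promoter region (chr4:66827289-66827944) had a peak in all 16 libraries. The percentile was 46.6, 5.77, 18.6 and 8.23 in hi-77+/+ empty and 75.1, 70.8, 64.2 and 65.8 in hi-77-/- empty. With GATA2 it was 39.0, 47.9, 31.6 and 60.2, and with 9aa-Ins 71.2, 76.4, 74.9 and 67.4. The deletion raised it by 49.2 ± 7.89 (adjusted p = 3.64e-04), a call lost with all deposited peaks alone. The GATA2 values were below every hi-77-/- empty library and overlapped those of hi-77+/+ empty, and the GATA2 difference of 24.3 missed the threshold (adjusted p = 0.0632). The difference of 27.8 between the vectors (adjusted p = 0.0282) was lost without GATA2 replicate 1 or 3 or 9aa-Ins replicate 1, 2 or 3 (adjusted p up to 0.0859) and with ranks within a chromosome.

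Within Tlr4, a pair of intronic regions had peaks among the 49000 only in cells that carried a GATA2 or 9aa-Ins vector. The region at 24.64 kb (chr4:66852005-66852367) was at 0 in all 8 empty vector libraries, at 39.0, 42.4, 0 and 34.2 with GATA2 and at 54.0, 61.5, 59.4 and 62.8 with 9aa-Ins. In the full lists, 3 of 4 hi-77+/+ empty libraries and 1 of 4 hi-77-/- empty libraries had a weaker peak there. 9aa-Ins raised the percentile by 59.4 ± 7.61 (adjusted p = 3.01e-04) over hi-77-/- empty and by 30.5 ± 7.61 over GATA2 (adjusted p = 0.0134), and both calls held in all 25 alternatives. The GATA2 increase of 28.9 (adjusted p = 0.0212) was lost without GATA2 replicate 1, 2 or 4 (adjusted p up to 0.0664), with all deposited peaks, with lists of 24000 and where a peak had to cover 50% of the region.

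The region at 29.61 kb (chr4:66857067-66857343) was at 9.96, 40.8, 36.6 and 45.2 with 9aa-Ins, at 0, 1.94, 0 and 0 with GATA2 and at 0 in both empty vector groups, whose full lists held no peak there either. 9aa-Ins was higher than hi-77-/- empty by 33.1 ± 5.59 (adjusted p = 0.00266) and higher than GATA2 by 32.7 ± 5.59 (adjusted p = 9.10e-04). Both calls held in all 24 alternatives. The window of Tlr4 accordingly held 1 peak in every empty vector library, 3, 3, 1 and 2 with GATA2 (adjusted p = 0.0272) and 3 in every 9aa-Ins library (adjusted p = 0.0132). The GATA2 call of the window was lost without any 1 hi-77-/- empty library or GATA2 replicate 1 or 2 (adjusted p up to 0.0755) and with peaks narrower than 1 kb, and both calls were lost with all deposited peaks. With lists of 24000 the GATA2 difference of the window was called in the opposite direction, as given above.

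Tlr5 (chr1:182954788-182976044, plus strand), the flagellin receptor, was the nearest gene to all 14 regions of its window. The number of peaks there did not differ detectably, with means from 8.5 to 9.5 and adjusted p from 0.243 to 0.865. Its promoter region (chr1:182953555-182954150, summit 0.93 kb upstream), the highest ranked of 3 within 1 kb of the 5′ end, was nonetheless among the most changed. The percentile was 28.3, 8.39, 8.85 and 10.6 in hi-77+/+ empty and 66.0, 71.1, 75.98 and 72.1 in hi-77-/- empty. With GATA2 it was 32.2, 56.7, 62.7 and 46.6, and with 9aa-Ins 58.3, 66.1, 63.1 and 71.4. All 12 hi-77-/- libraries were above all hi-77+/+ libraries, and the deletion difference was 57.3 ± 6.21 (adjusted p = 1.19e-05), lost where a peak had to cover 50% of the region. GATA2 lowered the percentile by 21.8 ± 6.21 (adjusted p = 0.0333), a call lost in 9 of 25 alternatives, among them leaving out hi-77-/- empty replicate 2, 3 or 4 or GATA2 replicate 1 or 4 (adjusted p up to 0.0882). The other 2 regions, 0.03 kb upstream and 0.45 kb downstream, pointed the opposite way without a limma call (adjusted p = 0.346 and 0.124 for the deletion). Ranked peaks were there in 1 and 2 hi-77+/+ empty libraries and in no hi-77-/- library. Full lists held a peak at both in 4 of 4 hi-77+/+ empty libraries. Among hi-77-/- libraries, only 1 9aa-Ins list held one, at 0.45 kb downstream.

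The highest ranked region of the Tlr5 window, 28.37 kb downstream and beyond the 3′ end of the gene, stayed between 88.3 and 98.7 in all 16 libraries. Upstream, the region at 31.72 kb was at 37.0 ± 10.9 in hi-77-/- empty, 43.4 ± 9.96 with 9aa-Ins and 8.82 ± 17.6 with GATA2, where 1 of 4 libraries had a peak (SD, n = 4 each). It was higher with 9aa-Ins than with GATA2 (adjusted p = 0.0345), a call lost without GATA2 replicate 1, 2 or 3 or 9aa-Ins replicate 2, 3 or 4 (adjusted p up to 0.0999) or with lists of 24000 peaks. The region at 9.94 kb upstream, singled out after its values were seen, was at 3.44, 19.6, 21.4 and 18.3 with 9aa-Ins and at 0 in the other 12 libraries (adjusted p = 0.00529 against hi-77-/- empty).

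**Figure D4:**
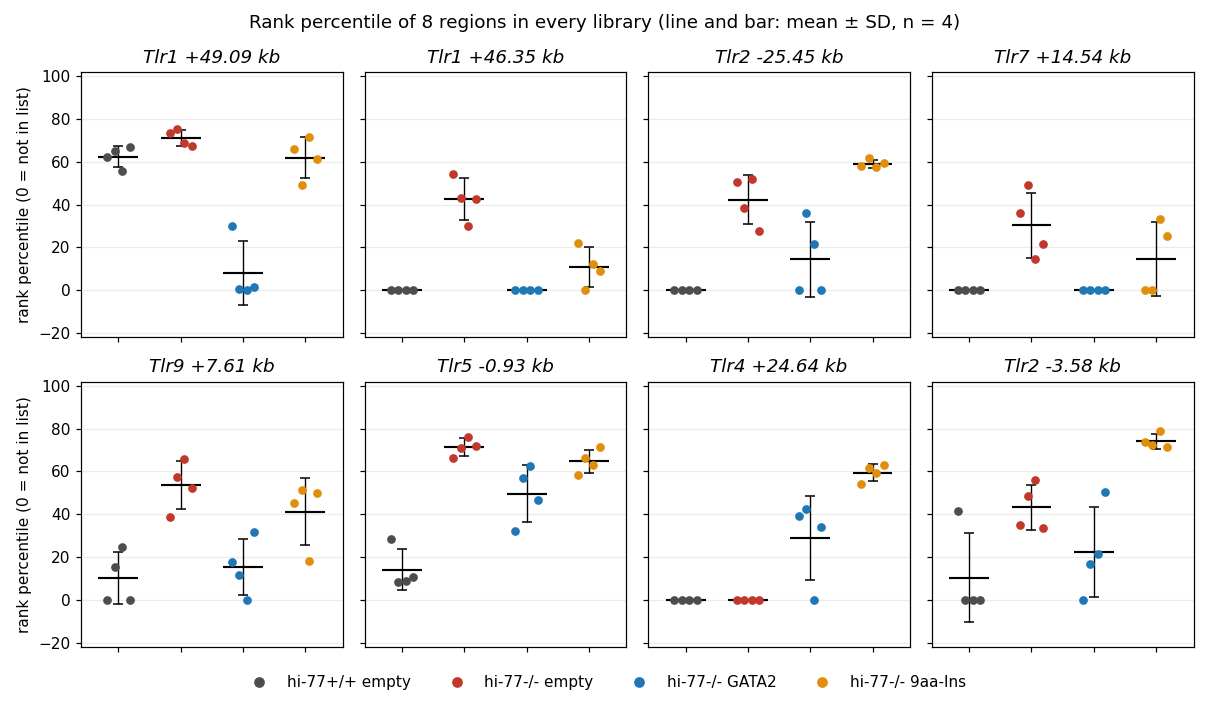
Rank percentile (y axis, 0 where no peak was among the 49000) of 8 regions near Tlr1, Tlr2, Tlr4, Tlr5, Tlr7 and Tlr9 in every library, by group (colors), with the mean and SD of 4 libraries. GATA2 libraries are at 30.2 or below at Tlr1 +49.09 kb where all others are at 49.3 or above, and at Tlr4 +24.64 kb only GATA2 and 9aa-Ins libraries are above 0.

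Among the endosomal receptors, Tlr7 and Tlr8 (chrX:167304929-167330558 and chrX:167242696-167264329, both on the minus strand), whose products recognize single-stranded RNA, share 100 kb windows, with 9 and 16 regions, of which 6 were shared. Neither gene had a region within 1 kb of its 5′ end. The Tlr7 window held 1, 1, 2 and 3 peaks in hi-77+/+ empty and 3, 6, 4 and 4 in hi-77-/- empty (difference 2.5 ± 0.735, adjusted p = 0.0212), a call lost without hi-77+/+ empty replicate 1 or 2 or hi-77-/- empty replicate 2 (adjusted p up to 0.0691) and with lists of 24000 peaks. The Tlr8 window held 5, 5, 5 and 6 peaks in hi-77+/+ empty and 7, 11, 9 and 9 in hi-77-/- empty (difference 3.75 ± 0.84, adjusted p = 0.00465). That call was lost with all deposited peaks and with windows of 50 kb (adjusted p up to 0.214). Neither vector passed the test against hi-77-/- empty in these windows. The lists as a whole also held more peaks on chromosome X after the deletion, 940 ± 36.6 against 811 ± 20.2 (SD, n = 4 each), and the part of this in the window counts was not tested.

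A region in an intron of Tlr7, 14.54 kb downstream of its 5′ end (chrX:167315926-167316241), followed the pattern of Tlr1 +46.35 kb. It was at 0 in all hi-77+/+ empty and all GATA2 libraries, whose full lists also held no peak, and at 36.0, 49.02, 14.7 and 21.5 in hi-77-/- empty. With 9aa-Ins it was at 0, 0, 33.1 and 25.1. The deletion call (30.3 ± 7.98, adjusted p = 0.0123) held in all 24 alternatives. The GATA2 call (adjusted p = 0.0211) was lost without hi-77-/- empty replicate 1 or 2 (adjusted p up to 0.0585) and with the replicate number as a block (adjusted p = 0.0523). The highest ranked regions of the 2 windows, nearest to Prps2 and Tmsb4x, did not pass the test in any comparison.

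Tlr9 (chr9:106222598-106226883, plus strand), whose product recognizes unmethylated CpG DNA, lies among closely spaced genes, and only 4 of the 30 regions in its window were nearest to Tlr9. The window held 18, 21, 23 and 20 peaks in hi-77+/+ empty and 28, 25, 27 and 22 in hi-77-/- empty, a difference of 5 ± 1.58 (adjusted p = 0.0304) with overlap between the groups. That call was lost in 9 of 23 alternatives, among them leaving out hi-77+/+ empty replicate 1, 2 or 4 or hi-77-/- empty replicate 1, 2 or 3 (adjusted p up to 0.0874). The promoter region (chr9:106222189-106222901) was at 49.7, 0, 45.3 and 43.4 in hi-77+/+ empty and at 69.2, 62.3, 57.8 and 74.0 in hi-77-/- empty. The deletion difference of 31.2 ± 9.07 (adjusted p = 0.0214) was lost without hi-77-/- empty replicate 1 or 4 (adjusted p up to 0.0615), with all deposited peaks, where a peak had to cover 50% of the region and with peaks narrower than 1 kb. Neither vector passed the test, with means of 46.1 ± 11.9 for GATA2 and 67.3 ± 2.44 for 9aa-Ins.

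The intergenic region 7.61 kb downstream of the Tlr9 5′ end and beyond its 3′ end (chr9:106230014-106230759, nearest gene Tlr9) was at 0, 15.5, 24.8 and 0 in hi-77+/+ empty and at 38.8, 57.3, 65.9 and 52.3 in hi-77-/- empty. GATA2 libraries were at 17.7, 11.8, 0 and 31.6, and 9aa-Ins libraries at 45.4, 51.2, 18.1 and 50.1. The hi-77-/- empty libraries were all above the hi-77+/+ empty and GATA2 libraries. The deletion raised it by 43.5 ± 9.30 (adjusted p = 0.00327) and GATA2 lowered it by 38.3 ± 9.30 (adjusted p = 0.0129). Both calls were lost with all deposited peaks, with lists of 24000 and where a peak had to cover 50% of the region.

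The largest GATA2 difference of all 129 regions lay in the Tlr9 window but nearer to Poc1a, 51.39 kb downstream of Tlr9 (chr9:106273679-106274210, intergenic). It was at 32.2, 36.5, 33.0 and 16.9 in hi-77+/+ empty and at 72.8, 59.9, 71.9 and 67.0 in hi-77-/- empty. With GATA2 it was at 17.7, 0, 0 and 0, and with 9aa-Ins at 73.1, 74.0, 71.1 and 60.7. GATA2 lowered it by 63.5 ± 5.60 (adjusted p = 2.84e-06), and it was 65.3 ± 5.60 higher with 9aa-Ins than with GATA2 (adjusted p = 2.37e-06). Those 2 calls held in all 25 alternatives, and the deletion difference of 38.3 (adjusted p = 1.68e-04) was lost with all deposited peaks alone.

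Other changed regions of the Tlr9 window lay in or near neighboring genes. In an intron of Alas1, the rate-limiting enzyme of heme synthesis, the region 20.42 kb downstream of Tlr9 was at 44.8 ± 13.5 in hi-77-/- empty, 9.21 ± 7.10 with GATA2 and 64.6 ± 4.91 with 9aa-Ins (SD, n = 4 each). It was called for GATA2 (adjusted p = 0.00533) and between the vectors (adjusted p = 1.51e-04). The GATA2 call was lost with all deposited peaks, with lists of 24000 and where a peak had to cover 50% of the region (adjusted p up to 0.975). In an intron of Poc1a, the region 86.14 kb downstream opened after the deletion (40.5 ± 6.82, adjusted p = 5.45e-04) and was lower with GATA2 (adjusted p = 0.00307), calls that held in all 24 alternatives. The region 75.11 kb upstream was at 45.4, 48.6, 49.3 and 52.5 with 9aa-Ins and at most 37.2 in any other library (adjusted p = 0.00181 against GATA2). Its call against hi-77-/- empty (34.1, adjusted p = 0.0265) was lost in 9 of 25 alternatives, among them leaving out hi-77-/- empty replicate 1, 2 or 3 or 9aa-Ins replicate 2, 3 or 4 (adjusted p up to 0.0810). At 62.67 kb upstream, in an exon of the noncoding gene D030055H07Rik, the deletion call (25.1 ± 8.62, adjusted p = 0.0491) was lost in 18 of 25 alternatives, among them leaving out hi-77+/+ empty replicate 2 or 3, hi-77-/- empty replicate 2, 3 or 4, or any GATA2 or 9aa-Ins library (adjusted p up to 0.140). The highest ranked region of the window, nearest to Twf2, was between 84.3 and 97.8 in all 16 libraries. Its deletion difference of 5.62 ± 1.87 (adjusted p = 0.0427) was lost in 14 of 25 alternatives, among them leaving out hi-77+/+ empty replicate 1 or 2, hi-77-/- empty replicate 2, 3 or 4, GATA2 replicate 2 or 4, or 9aa-Ins replicate 1, 2 or 3 (adjusted p up to 0.114).

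Measured over the 16 libraries, the promoter regions most like Tlr9 +51.39 kb, of 12197, were those of Aldh3b1 (Pearson r = 0.936), Ttc30a2 (0.933), Trem1 (0.924), Il6ra (0.917) and Armcx3 (0.913). The libraries share their groups and list lengths, so these values only describe likeness. The promoter of Trem1, a myeloid receptor that amplifies Toll-like receptor signals, was at 85.9 ± 3.06, 94.9 ± 2.27, 77.02 ± 5.21 and 95.0 ± 3.10 (SD, n = 4 each) in hi-77+/+ empty, hi-77-/- empty, GATA2 and 9aa-Ins.

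Tlr3 (chr8:45395665-45411080, minus strand), which recognizes double-stranded RNA and signals without MYD88, had as few regions in its window as Tlr4, 4, and none had a peak in all 16 libraries. Its window held 2, 2, 2 and 4 peaks in hi-77+/+ empty, 0, 1, 0 and 0 in hi-77-/- empty, 1, 1, 0 and 0 with GATA2 and 1, 1, 0 and 1 with 9aa-Ins. The deletion lowered the number by 2.25 ± 0.444 (adjusted p = 0.00200), and the call held in all 21 alternatives. The highest ranked region, 65.89 kb downstream in an intron of Fam149a, had a peak in 8 of 16 libraries and no call. The region 28.31 kb upstream (chr8:45439243-45439479), singled out after its values were seen, was at 32.9, 1.37, 15.8 and 28.5 in hi-77+/+ empty and at 0 in all 12 hi-77-/- libraries (adjusted p = 0.00785, held in all 24 alternatives). Chromosome 8 as a whole held 3843 ± 71.9 of the 49000 peaks in hi-77+/+ empty and 2672 ± 134 in hi-77-/- empty (SD, n = 4 each), and the part of this in the Tlr3 values was not tested.

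Myd88 (chr9:119335934-119341411, minus strand) differed from the receptors in having a promoter peak near the top of every list. The percentile was 97.8 ± 1.32 in hi-77+/+ empty, 96.9 ± 1.12 in hi-77-/- empty, 96.4 ± 0.976 with GATA2 and 96.3 ± 3.08 with 9aa-Ins (SD, n = 4 each), without a call in any comparison. The differences were 0.845 or less in size, with an SE of 1.26. Its window held 12.25 to 13.5 peaks on average (adjusted p from 0.628 to 0.926). Of the 19 regions in the window, 1 was nearest to Myd88 itself, and the highest ranked, nearest to Oxsr1, was between 95.5 and 99.5 in all libraries without a call.

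Most of the regions described near Myd88 lay within other genes. An intergenic one at 60.57 kb upstream, next to the 5′ end of Acvr2b and singled out after its values were seen, was lower with 9aa-Ins (88.4 ± 2.04) than with GATA2 (94.6 ± 1.43; SD, n = 4 each, adjusted p = 0.0323). In introns of Oxsr1 and Slc22a14, the region 93.22 kb downstream (chr9:119247822-119248425) was at 0 in all hi-77+/+ empty libraries and at 32.03, 59.9, 41.3 and 45.7 in hi-77-/- empty. With GATA2 it was at 0, 0, 4.75 and 31.6, and with 9aa-Ins at 48.2, 55.4, 62.3 and 58.9. The deletion raised it by 44.7 ± 7.52 (adjusted p = 5.33e-04) and GATA2 lowered it by 35.7 ± 7.52 (adjusted p = 0.00496), and both calls were lost with lists of 24000 peaks and where a peak had to cover 50% of the region, the latter also with all deposited peaks. In the same introns, the region 75.42 kb downstream was at 65.7, 64.0, 67.0 and 58.9 with 9aa-Ins and at 51.0 or below elsewhere (50.3 ± 10.3 above hi-77-/- empty, adjusted p = 0.0111, in all 25 alternatives).

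Upstream of Myd88, in introns of Acvr2b, the region at 83.94 kb was higher after the deletion, at 75.8 ± 5.42 against 30.2 ± 22.9 (adjusted p = 8.37e-04), a call lost with all deposited peaks alone. The region at 89.11 kb was lower, at 45.6 ± 14.1 against 75.4 ± 5.48 (SD, n = 4 each, adjusted p = 0.00848), and was also lower with 9aa-Ins than with GATA2 (28.9 ± 7.35, adjusted p = 0.0151), a call lost in 5 of 25 alternatives, among them leaving out 9aa-Ins replicate 3 (adjusted p = 0.0512). The region at 10.82 kb upstream, in an intron of Slc22a14, fell from 73.1 ± 4.84 to 34.2 ± 23.0 (adjusted p = 0.0442), and that call was lost in 10 of 25 alternatives, among them leaving out any hi-77+/+ empty library, hi-77-/- empty replicate 2 or 4, or 9aa-Ins replicate 2 or 3 (adjusted p up to 0.136).

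**Figure D5:**
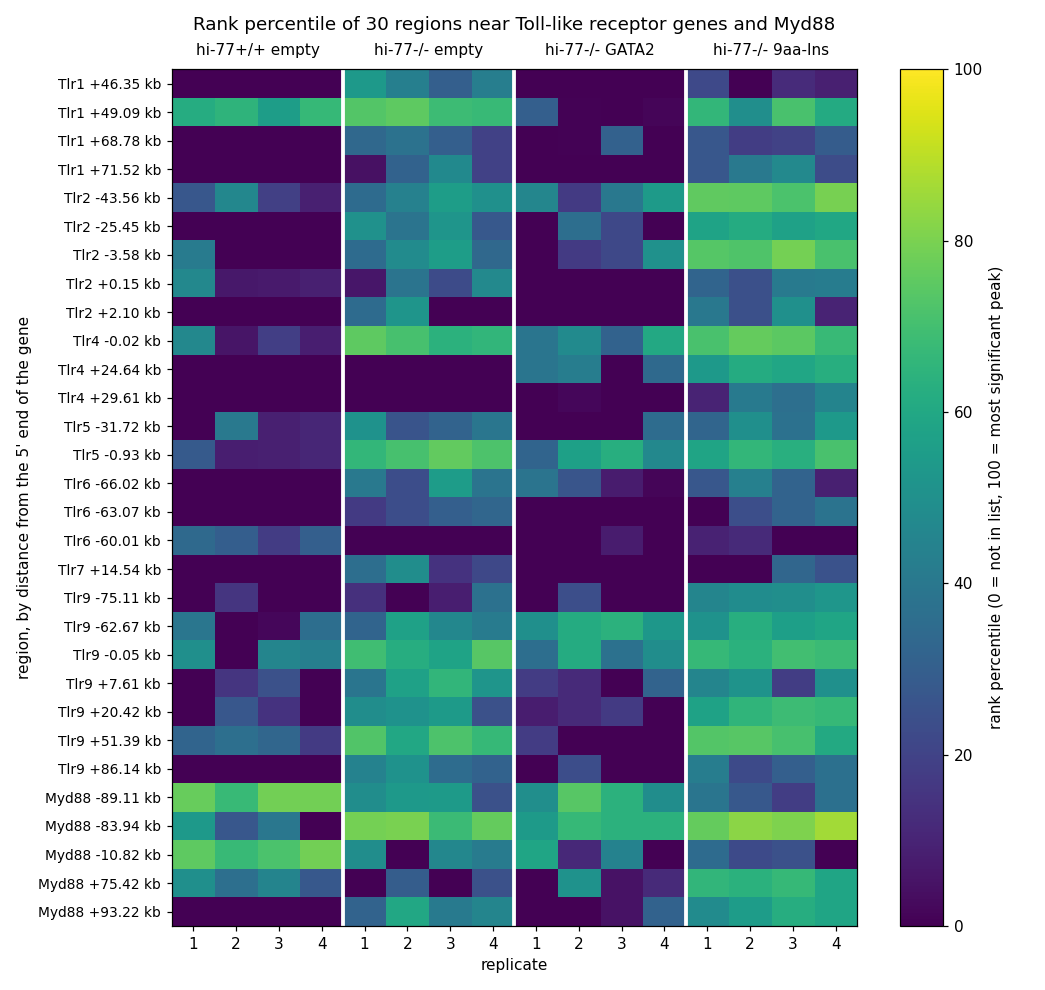
Rank percentile (color, 0 to 100) of the 30 called regions with the largest differences near the 10 genes (rows, named by kb from the 5′ end) in each of 16 libraries (columns, by group and replicate). Most rows are brighter in hi-77-/- empty and 9aa-Ins than in hi-77+/+ empty and GATA2, while Tlr6 -60.01 kb, Myd88 -89.11 kb and Myd88 -10.82 kb are brightest in hi-77+/+ empty.

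The percentile ranks the significance of a peak and is not a measure of reads, so levels of different genes are set side by side only as an order. The promoters of the 10 genes can be placed in order by their level in hi-77-/- empty. Where several regions lay within 1 kb of a 5′ end, a single one was used, at 0.93 kb upstream for Tlr5 and 0.91 kb upstream for Tlr6. Myd88 was highest, and Tlr5 (71.3 ± 4.09), Tlr6 (70.9 ± 7.78), Tlr4 (69.0 ± 4.95) and Tlr9 (65.8 ± 7.16) followed, with differences between neighbors smaller than their spread (SD, n = 4 each). Tlr2 was lower at 28.6 ± 18.1, and Tlr1, Tlr3, Tlr7 and Tlr8 had no peak. In hi-77+/+ empty the order after Myd88 was Tlr6 (65.9 ± 3.74), Tlr9 (34.6 ± 23.2), Tlr4 (19.8 ± 18.7), Tlr2 (17.5 ± 19.6) and Tlr5 (14.0 ± 9.57), of which only Tlr6 stood clear of the spread of the others. Tlr3 had a weak promoter peak in 2 of 4 hi-77+/+ empty libraries.

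The wider pathway was followed in a list of 45 genes for adaptors, kinases, accessory proteins, transcription factors, inhibitors and target cytokines, of which 40 had a promoter region. After the deletion, 5 of the 40 promoters were higher (12.7% of 12197 promoters) and 7 were lower (14.3%), numbers close to those shares of all promoters. Cd180, a Toll-like receptor relative that pairs with LY86, changed most, from 0 in every hi-77+/+ empty library to 69.5 ± 5.25 in hi-77-/- empty (adjusted p = 6.61e-07). GATA2 lowered it to 23.4 ± 6.73 (adjusted p = 4.39e-05), and it was at 59.4 ± 11.2 with 9aa-Ins (SD, n = 4 each). Irf5, a transcription factor downstream of MYD88, was also higher after the deletion (17.8 ± 12.4 to 48.3 ± 6.68, adjusted p = 0.0160), as were Tab1, Tlr12 and Tnf.

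Conversely, the deletion lowered the promoters of Irf7, a transcription factor of the interferon response (77.3 ± 3.66 to 47.7 ± 6.56, adjusted p = 1.76e-04), and of Ifnb1, Irak2, Irak4, Traf6, Ikbkg and Unc93b1. GATA2 raised Irf7 to 71.0 ± 5.41 (adjusted p = 0.00203) and it was at 51.4 ± 8.39 with 9aa-Ins (SD, n = 4 each). In all, GATA2 raised 2 promoters of the list (Irf7 and Ikbkg, all promoters 3.28%) and lowered 2 (all promoters 2.65%), Cd180 and Ticam2, the adaptor of TLR4 in endosomes, which was at 74.5 ± 4.91 in hi-77-/- empty and 35.8 ± 16.4 with GATA2 (adjusted p = 6.27e-04). 9aa-Ins raised 1 promoter (all promoters 0.680%), that of Lbp, the lipopolysaccharide binding protein, to 91.7 ± 1.54 from 81.1 ± 3.38 (adjusted p = 0.0284). Between the vectors, Ticam2, Cd180, Lbp and Nfkb1 were higher with 9aa-Ins (all promoters 2.71%) and Irf7 was lower (all promoters 2.84%).

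In the numbers of peaks near these 45 genes, 44 with a window that could be tested, the deletion raised 6 (Irak2, Traf6, Cd180, Ly86, Tnfaip3 and Il12b) and lowered 2 (Ikbkb and Tbk1), beside 9.47% and 16.7% of all gene windows. Ly86, whose product binds CD180, went from 3.75 to 11.50 peaks (adjusted p = 7.88e-04) and Cd180 from 3 to 10.5 (adjusted p = 5.30e-05). Traf6, the ubiquitin ligase downstream of MYD88, had 9.25 peaks in hi-77+/+ empty, 13.5 in hi-77-/- empty, 8 with GATA2 (adjusted p = 3.91e-04) and 9.75 with 9aa-Ins (adjusted p = 0.0259). It was the only gene of the 44 whose window was called against hi-77-/- empty with either vector, and it was lower with both. Of all windows, 4.50% were lower with GATA2 and 0.144% with 9aa-Ins, and 5.07% and 0.556% were higher. Between the vectors, the windows of Lbp, Unc93b1 and Nfkbia held more peaks with 9aa-Ins and none held fewer (all windows 5.40% and 6.37%).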

How the data were processed

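ATAC-Seq was performed on 16 libraries, 4 per group. Per the study's methods, the authors trimmed reads with Trim Galore (0.4.1), aligned them to mm10 with Bowtie2 (2.2.5), removed duplicates with Picard (2.26.0), shifted read ends for the transposase offset and ran MACS2 on every library separately, whose model option is given differently in different passages. The deposited peak lists give for every peak a summit, a score, a fold enrichment (a ratio over background), and -log10 p and q values computed by the authors. They hold no reads, so the read depth behind each peak is unknown, and the count model used in the study could not be applied.

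Peaks on chromosomes 1 to 19 and X were sorted by -log10 p, with ties broken by fold enrichment and position, and the first 49000 of each library were merged into 90549 regions (overlap of at least 1 bp). Each library gave a region a rank percentile. Differences were tested with limma (3.58.1, R 4.3.3) over all 4 groups and all regions, with Benjamini-Hochberg adjustment and a threshold of 0.05. The script was tested on simulated data, in which large changes were mostly found and smaller ones were often missed. The size of change it had to recover was raised after a first run fell short. A region that misses the threshold is therefore not shown to be unchanged. Python 3.11.15, numpy 2.4.6, scipy 1.17.1 and pandas 2.3.3 were used, with the GENCODE annotation of mm10. The genes, gene lists and motifs were chosen with earlier results of these data known. Regions named were the 30 with the largest difference among those called by limma or by presence, and the highest ranked region of each window. Others are said to have been singled out after their values were seen. Same-numbered replicates of different groups did not deviate together (highest correlation 0.091), so no pairing was used. Alternatives were all deposited peaks, 24000 peaks, ranking by fold enrichment, a log2 rank scale, peaks covering 50% of a region, peaks narrower than 1 kb, windows of 50 kb, windows with a mean of at least 5 peaks, a replicate block and leaving out each library. Ranking by fold enrichment gave the same region counts as the main ranking in all 4 comparisons and kept all 71 single results it covered. It is therefore no separate check, although it is counted among the alternatives. Mean ranks for ties, ranks within a chromosome and leaving out the 4 hi-77-/- libraries with a peak at the -77 site were added after the data were seen, the last for the counts only.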

Additional observations from a re-analysis of the deposited data

Results flagged for a closer look

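In 23 of 160 groups of 4 libraries tested, 1 library lay apart from the other 3 by Dixon's test, a criterion that chance meets in about 1 of 20 groups. Whole numbers and percentiles at 0 tie often, which makes the criterion easy to meet here.

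In the numbers of peaks per window, the library apart was hi-77-/- empty replicate 1 at Tlr2, with 8 peaks against 7. At Tlr3 it was hi-77+/+ empty replicate 4 (4 against 2), hi-77-/- empty replicate 2 (1 against 0) and 9aa-Ins replicate 3 (0 against 1). At Tlr5 it was hi-77+/+ empty replicate 3 (8 against 10), at Tlr6 9aa-Ins replicate 4 (13 against 14) and at Tlr8 hi-77+/+ empty replicate 4 (6 against 5).

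Among percentiles in hi-77+/+ empty, replicate 1 was high at the Tlr5 promoter, 0.93 kb upstream (28.3, others at most 10.6), at Tlr2 +0.15 kb (46.8, others at most 8.98) and at Tlr2 -3.58 kb (41.5, others at 0). Replicate 2 was low at the Tlr9 promoter (0, others at least 43.4) and at Myd88 -89.11 kb (67.2, others at least 76.9), and high at Tlr9 -75.11 kb (15.5, others at 0). In hi-77-/- empty, replicate 2 was at 0 at Myd88 -10.82 kb, where the others were at least 41.7.

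The GATA2 group held 9 of the 23 cases, each with 1 library above the other 3. Replicate 1 was at 30.2 at Tlr1 +49.09 kb and at 17.7 at Tlr9 +51.39 kb. Replicate 2 was at 1.94 at Tlr4 +29.61 kb, and at 23.8 both at Tlr9 -75.11 kb and at Tlr9 +86.14 kb. Replicate 3 was at 30.9 at Tlr1 +68.78 kb and at 7.78 at Tlr6 -60.01 kb. Replicate 4 was at 35.3 at Tlr5 -31.72 kb and at 31.6 at Myd88 +93.22 kb.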

How the results depend on the processing

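The 4 comparisons called 30, 21, 10 and 29 of the 129 regions (deletion, GATA2, 9aa-Ins and 9aa-Ins against GATA2). With 24000 peaks these became 17 for the deletion, 13 for GATA2 and 18 between the vectors. Where a peak had to cover 50% of the region they became 16 for the deletion and 9 for GATA2. All deposited peaks gave 11 of 227 for GATA2 (all regions 1.36% and 3.13%) and 47 between the vectors (10.7% and 1.03%). Windows of 50 kb gave 16 of 75 for the deletion (all regions 12.0% and 11.1%) and 18 between the vectors (9.14% and 4.87%). All deposited peaks gave 21 of 227 for the deletion, of which 10 were higher and 11 lower in place of 23 and 7 (all regions 3.28% and 7.89%). Leaving out together the 4 hi-77-/- libraries with a peak at the -77 site gave 4 of 121 for 9aa-Ins (all regions 2.13% and 0.560%) and 12 between the vectors (5.87% and 2.85%). It also gave 9 presence calls for 9aa-Ins, where 2 libraries then stand for the group. With these fewer samples, 0 windows were called for 9aa-Ins by limma (1 at an unadjusted p under 0.05). The 9aa-Ins count stayed within 1.5 times under each other alternative, although with 24000 peaks it was 10 of 62 regions (all regions 3.45% and 2.00%). The presence calls, 12, 5, 4 and 5, became 5, 2 and 2 for the first 3 comparisons with 24000 peaks, 7, 8 and 16 for the deletion, GATA2 and the vectors where a peak had to cover 50% of the region, and 4 and 3 for the deletion and GATA2 in windows of 50 kb. All deposited peaks gave 9 for 9aa-Ins and 17 between the vectors, mean ranks for ties 3 for GATA2 and 2 for 9aa-Ins, and peaks narrower than 1 kb 8 between the vectors. The called windows, 6, 3, 1 and 3, became 2, 0, 2 and 5 with all deposited peaks. With 24000 peaks 3 were called for the deletion, and windows of 50 kb gave 2 for 9aa-Ins and 1 between the vectors. For 9aa-Ins, peaks narrower than 1 kb gave 2, and 0 were called by limma among windows with a mean of at least 5 peaks (1 at an unadjusted p under 0.05). The direction reversed in 5 cases, all in windows: Tlr1, Tlr6 and Tlr7 after the deletion (-0.25 peaks each) and Tlr4 with GATA2 (-0.75) with 24000 peaks, and Tlr9 after the deletion (-1.5) with all deposited peaks. The cause was not tested.

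Leaving out 1 library gave 24 to 32, 15 to 21, 8 to 10 and 21 to 31 called regions, 12 to 14, 5 to 6, 4 to 6 and 5 to 8 presence calls, and 4 to 6, 2 to 3, 1 and 3 called windows. These called regions were out of 126 to 129. Of all regions, 10.8% to 12.3% were then higher and 9.59% to 11.9% lower after the deletion, and 4.19% to 5.45% and 6.06% to 7.01% with GATA2. The shares were 2.29% to 3.04% and 0.672% to 0.942% with 9aa-Ins, and 7.98% to 9.37% and 4.01% to 5.20% between the vectors. The 8 presence calls between the vectors came without GATA2 replicate 2. The difference at the -77 site ran from -1296.5 to -1093.5 bp, and 3 against 4 libraries cannot reach the threshold for it. With the replicate number as a block, 29, 17, 8 and 28 regions and 6, 3, 1 and 3 windows were called. The shares of all regions higher and lower were then 11.5% and 10.7%, 4.70% and 6.39%, 2.57% and 0.761%, and 8.64% and 4.61%, in the same order of comparisons. The numbers do not pair the libraries, with a highest correlation of 0.091. Over 84 single results and 2047 alternative values, 1761 kept their direction and call, 281 lost the call and 5 reversed. Read depth is unknown, and weak peaks of libraries with short lists could not be ranked.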
